A study of Homo sapiens with 15 samples.

Results

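The lipins and the lysophospholipid acyltransferases considered here are 10 genes of the making and remodelling of phospholipids: LPIN1, LPIN2, LPIN3, AGPAT1, AGPAT2, AGPAT4, AGPAT5, LPCAT1, LPCAT2 and LPCAT3. They were chosen by gene family, and their probes were found as the non-control probes whose RefSeq accession belongs to 1 of these genes. They are 10 of the 19483 genes that the array names through a RefSeq accession, and they are read by 14 probes out of 42405. LPIN1 and LPCAT2 have several probes, as does AGPAT4, and every probe is reported.

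The cells were PE/CA-PJ41, a human oral squamous carcinoma line. The CYGB+ cells carry the pCMV6-Neo plasmid with the cDNA of human cytoglobin, a haem protein, so that the insert is driven by a viral promoter that is active in most cell types; they are 1 stable clone (LST421 in the study's methods) picked with a cloning ring. The NCE cells carry an empty vector per the labels, while the study also calls its control cells un-transfected; which holds for these arrays, and whether NCE is a clone or a pool, is not settled by the sources used here. The labels give 1 treatment text to all samples, with selection of stable clones in G418 and 24 h in supplemented medium before RNA extraction; whether NCE went through the selection is therefore not settled either. Each cell line has 3 biological replicates, from RNA extracted on separate occasions, and each replicate was hybridised to 3 arrays for NCE and to 2 arrays for CYGB+, so that 9 and 6 arrays were averaged into 3 values a group. The p-values of the fit to these averaged values, the reported fit below, therefore measure the spread between extractions of the same 2 cell lines. They do not measure the spread between independently made clones. The array is a 2-colour Agilent human expression array, and the values below are the log2 green (Cy3) signal, the dye that the labels give for every sample.

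Glycerophospholipids are built on phosphatidate. AGPAT enzymes make it by adding a fatty acid to lysophosphatidate, and lipins, which are magnesium-dependent phosphatidate phosphatases, then remove its phosphate to give diacylglycerol, the precursor of triglyceride, phosphatidylcholine and phosphatidylethanolamine. What is not dephosphorylated can instead be turned into CDP-diacylglycerol, the precursor of phosphatidylinositol and of cardiolipin. LPCAT enzymes work later: after a phospholipase has removed a fatty acid from a finished phospholipid, they put another one on, and so set which acyl chains membranes carry.

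Several facts of the arrays bear on every value below. Of the 15 arrays, 8 NCE arrays lay on 1 slide, and the other NCE array, from NCE replicate 1, lay with the 6 CYGB+ arrays on the second slide, so slide and cell line can be told apart only through that array. Between 53.84% and 61.32% of spots were well above background, and 3 arrays stood apart from their own group (1 each of NCE replicates 1 and 3 and of CYGB+ replicate 1). The one of NCE replicate 1 is the NCE array on the second slide, with the lowest mean correlation with its own group of the 15 (-0.0576). Every value below with slide as a covariate or within the shared slide therefore rests on an array that stood apart. Both fits in the main set CYGB+ against that array, so they are not separate checks. They also take in how NCE replicate 1 differs from the other NCE replicates. The covariate fit used the 15 single arrays, with array repeats linked by a correlation, so its p-values do not rest on the averaged values. In the like fit without slide that correlation was 0.0657, which counts repeats nearly as separate values. The 3 arrays were picked by a negative mean correlation with their own group. Leaving them out therefore tends to narrow the spread within groups. It also leaves no NCE array on the second slide, so that slide and cell line then coincide. The CYGB probe itself read 11.87, 12.16 and 11.94 in NCE replicates 1 to 3 and 11.36, 12.42 and 11.96 in CYGB+, a difference of -0.07 (SE 0.27, limma adjusted p = 0.911). NCE is the study's short name for cells that do not express cytoglobin, yet this probe was well above background on all 15 arrays. What it reads in NCE, and where it lies relative to the inserted cDNA, was not tested. The probe of the targeted gene did not separate the groups, so the directions below are those of the arrays labelled CYGB+ against the arrays labelled NCE. The probes of the squamous epithelial markers KRT5, KRT14, KRT6A, TP63, CDH1 and EPCAM were all well above background on 15 arrays, those of COL3A1 and PDGFRB on 0, that of COL1A1 on 13, those of PTPRC on 0 to 5, that of CD3E on 3, that of CD68 on 15, those of PECAM1 on 0 to 1 and that of CDH5 on 14. Of the 19 marker probes 1 passed the test, that of KRT6A, a keratin of activated epithelium, at -0.51 (adjusted p = 0.0313), or 0.0028 with slide as a covariate. With the replicate block KRT14 (0.72, adjusted p = 0.0411) and EPCAM (-0.50, adjusted p = 0.0478) passed as well. The part of these markers in the results below was not tested.

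Between the 2 cell lines, 2 of the 10 genes differed, and both were lower in CYGB+. LPIN3, a lipin, was 1.79-fold lower and LPCAT3, the enzyme that puts polyunsaturated fatty acids onto lysophospholipids, was 1.56-fold lower. The other 12 probes, for the other 8 genes, did not pass an adjusted p of 0.05, and among them the 6 with a higher signal in CYGB+ belonged to LPIN1, AGPAT1, AGPAT4 and LPCAT1. The 2 probes called are 14.3% of the members' 14, beside 4.85% of all probes tested (2.39% lower and 2.46% higher). Over probes well above background on all arrays, fitted alone, 2 of 11 member probes were called, beside 12.1% of all such probes. The median difference over the 14 probes was -0.11 on the log2 scale, and over all probes it was -0.00115. In RNA from a whole culture, less transcript in each cell and fewer cells with the transcript cannot be told apart.

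**Figure D1:**
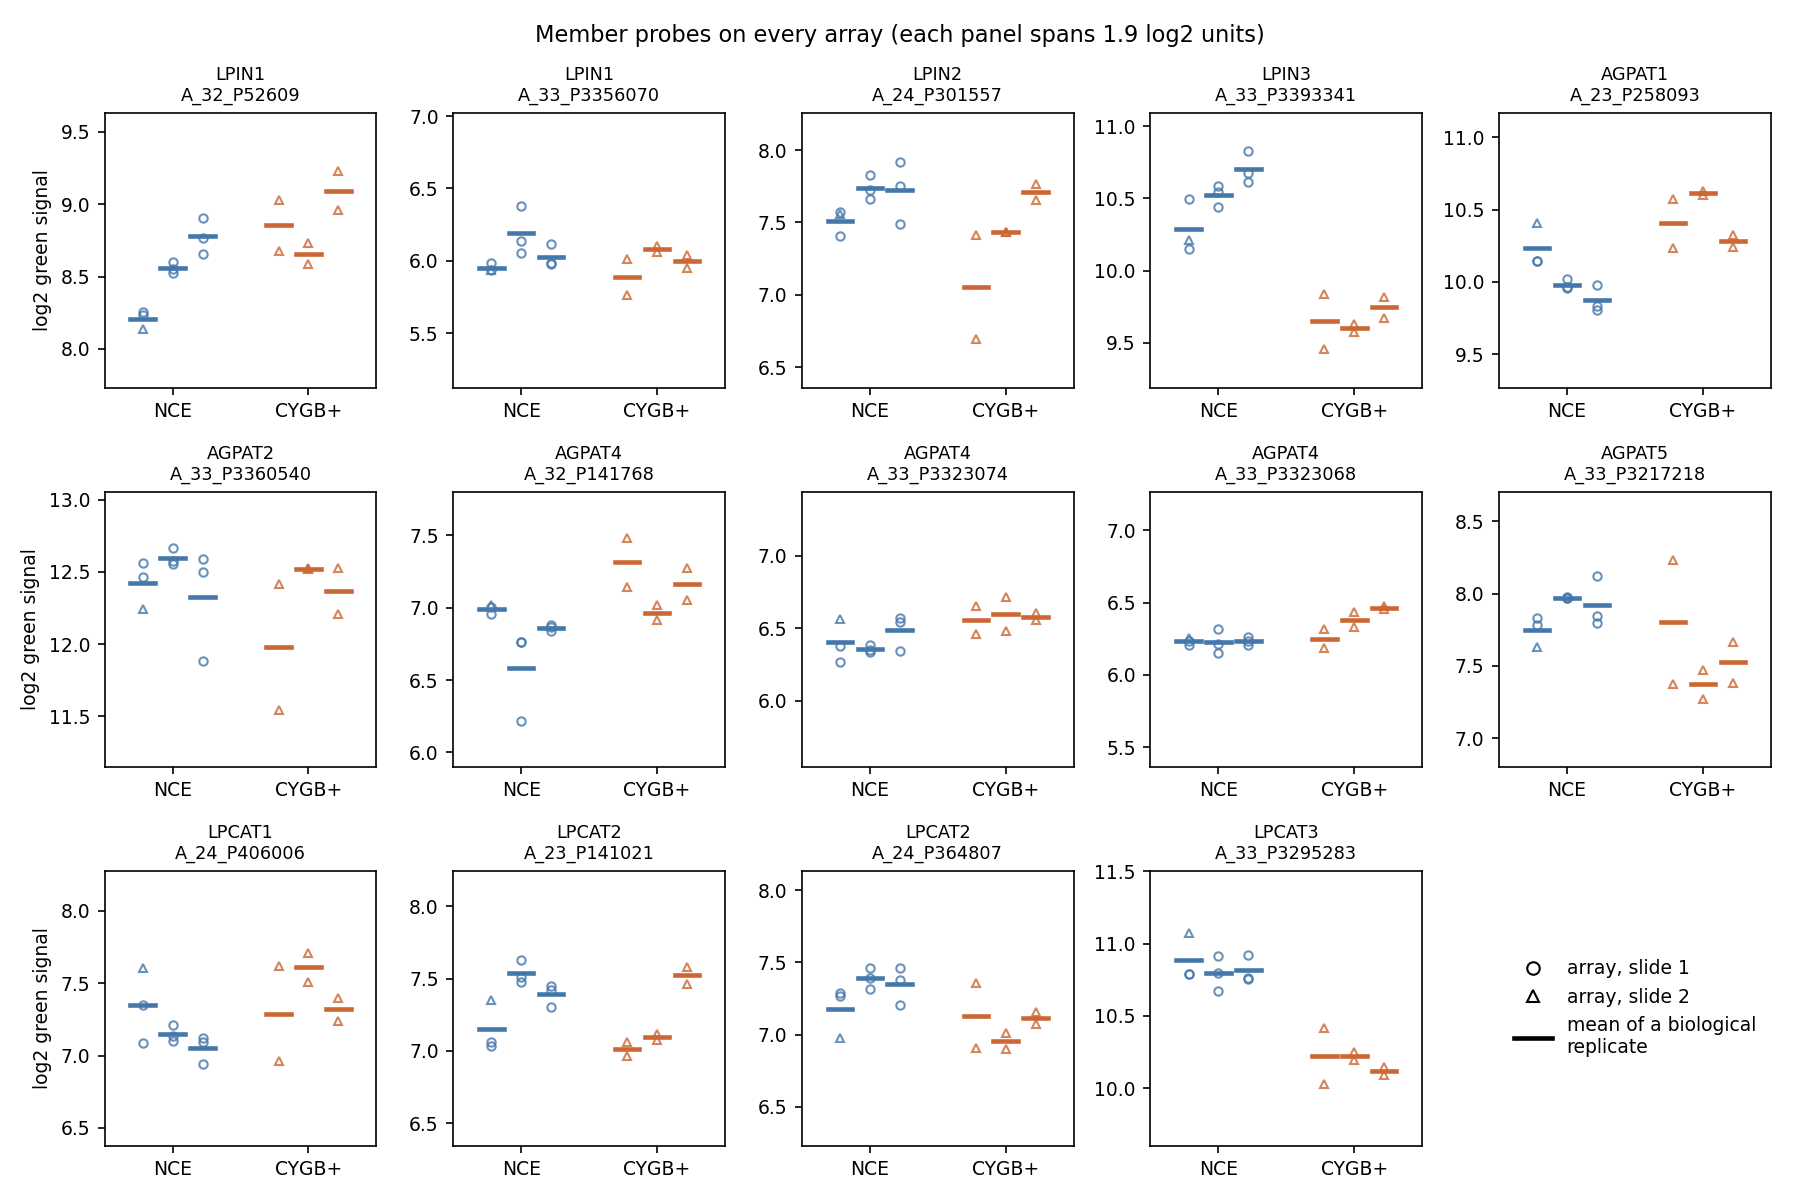
Log2 green signal of the 14 probes of the lipins, AGPATs and LPCATs on every array, with NCE in blue and CYGB+ in orange; circles are arrays of slide 1, triangles arrays of slide 2, and each bar is the mean of 1 biological replicate. The vertical axes differ in level but span the same range; for LPIN3 and LPCAT3 no NCE array overlaps a CYGB+ array, and for the other 12 probes the arrays of the 2 lines overlap.

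Among the lipins, LPIN3 was the one that passed the test in the reported fit. Like its paralogs it encodes a phosphatidate phosphatase. Its probe (A_33_P3393341) read 10.29, 10.52 and 10.70 in NCE replicates 1 to 3 and 9.65, 9.60 and 9.74 in CYGB+ replicates 1 to 3. All NCE values lay above all CYGB+ values, and the same held for single arrays, where the lowest of 9 NCE arrays read 10.15 and the highest of 6 CYGB+ arrays 9.84. The group means were 10.50 ± 0.21 and 9.67 ± 0.07 (SD, n = 3 each), and the difference of -0.84 (SE 0.11, 95% interval -1.11 to -0.56) had a limma adjusted p of 0.0178. The NCE array that shared a slide with CYGB+ read 10.22, above every CYGB+ array and close to the 10.32 of the same replicate on the first slide. With slide as a covariate the difference was -0.58 (adjusted p = 0.158), and within the shared slide, where 1 NCE array stands against 3 CYGB+ replicates and is assumed to vary as they do, it was -0.55 (adjusted p = 0.28). Without that NCE array it was -0.85 (adjusted p = 0.0135). The direction held under all 22 alternatives in processing and the call under 13 of them. Alternatives that changed only the error model, the block or the probe filter repeated the same difference of -0.84. As all NCE replicates lay above all CYGB+ replicates, leaving out a replicate could not turn the sign. Those alternatives therefore could not test the direction. Leaving out NCE replicate 2 or 3, or CYGB+ replicate 2 or 3, raised the adjusted p to between 0.0537 and 0.0828.

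LPIN1 encodes the lipin that is most abundant in muscle and fat, where it also acts as a transcriptional coactivator. Its brighter probe (A_32_P52609) read 8.21, 8.56 and 8.78 in NCE and 8.85, 8.66 and 9.09 in CYGB+. The highest NCE replicate lay above the lowest CYGB+ replicate, and the spread among the NCE replicates was wide beside the distance between the lines. The difference of 0.35 (SE 0.18, 95% interval -0.08 to 0.79) did not pass the test (limma adjusted p = 0.345). On the shared slide the NCE array read 8.13, the lowest of the 15 arrays. The difference was 0.70 with slide as a covariate (adjusted p = 0.201) and 0.73 within the shared slide. The second LPIN1 probe (A_33_P3356070) was well above background on 0 of 15 arrays, so it was not read further; its replicates ran from 5.95 to 6.19 in NCE and from 5.89 to 6.08 in CYGB+.

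LPIN2, the lipin whose loss causes the bone and skin inflammation of Majeed syndrome, read 7.51, 7.74 and 7.72 in NCE and 7.05, 7.43 and 7.71 in CYGB+. CYGB+ replicate 3 was as high as NCE, and CYGB+ replicate 1 held the lowest array, which read 6.69. The difference was -0.26 (SE 0.17, adjusted p = 0.487). Whether LPIN3 differed more than LPIN1 or LPIN2 was not tested.

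The AGPAT genes did not pass the test. AGPAT1 encodes an endoplasmic reticulum enzyme that makes phosphatidate and is expressed in most tissues. Its probe read 10.23, 9.98 and 9.87 in NCE and 10.41, 10.62 and 10.28 in CYGB+. Every CYGB+ replicate lay above every NCE replicate, but only just: the highest NCE value and the lowest CYGB+ value were almost the same. The difference was 0.41 (SE 0.12, 95% interval 0.10 to 0.72, limma adjusted p = 0.147). The NCE array on the CYGB+ slide read 10.41, inside the range of the CYGB+ arrays (10.24 to 10.63), and with slide as a covariate the difference was 0.05. Without the 3 arrays that stood apart, 1 of them that NCE array, the difference was 0.51 and passed (adjusted p = 0.0425).

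AGPAT2, whose loss causes congenital generalized lipodystrophy, gave the AGPAT signal that moved least between the lines relative to its error. Its values were 12.42, 12.60 and 12.32 in NCE and 11.98, 12.52 and 12.37 in CYGB+. The ranges overlapped, and CYGB+ replicate 1 was again the low value. The difference was -0.16 (SE 0.15, 95% interval -0.54 to 0.22, adjusted p = 0.636), and with slide as a covariate its sign turned, to 0.05.

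AGPAT4 encodes a lysophosphatidate acyltransferase that is abundant in brain. The brightest of its 3 probes (A_32_P141768) read 6.99, 6.58 and 6.86 in NCE and 7.32, 6.97 and 7.16 in CYGB+. Within each replicate number CYGB+ was the higher, although the groups overlapped. The difference was 0.34 (SE 0.14, adjusted p = 0.253), and with the replicate number as a block it passed (adjusted p = 0.0482). The other 2 probes were dim: A_33_P3323074, well above background on 6 of 9 NCE arrays and 6 of 6 CYGB+ arrays, differed by 0.16 (adjusted p = 0.134), and A_33_P3323068, above it on 1 and 3 arrays, by 0.13 (adjusted p = 0.316). The 3 probes thus had the same sign, and 1 of them passed in a fit that pairs the replicates.

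AGPAT5, an acyltransferase found at mitochondria, read 7.75, 7.97 and 7.92 in NCE and 7.80, 7.37 and 7.52 in CYGB+. CYGB+ replicate 1 lay inside the NCE range, and the other CYGB+ replicates lay below it. The difference was -0.31 (SE 0.12, 95% interval -0.62 to -0.01, adjusted p = 0.246). The array of CYGB+ replicate 1 that stood apart read 8.23, the highest of the 15 arrays; without the 3 arrays that stood apart the difference was -0.44 (adjusted p = 0.0117), while with slide as a covariate it was -0.07.

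LPCAT3 had the smallest p-value of the 14 probes. This enzyme of the endoplasmic reticulum belongs to the membrane-bound O-acyltransferases and is known for loading arachidonate and linoleate onto phosphatidylcholine in liver and gut. Its probe (A_33_P3295283) read 10.89, 10.79 and 10.81 in NCE and 10.22, 10.22 and 10.12 in CYGB+. The replicates of each line lay close together and the lines far apart: the lowest NCE array read 10.67 and the highest CYGB+ array 10.42. The means were 10.83 ± 0.05 and 10.19 ± 0.06 (SD, n = 3 each), and the difference was -0.64 (SE 0.05, 95% interval -0.77 to -0.52, limma adjusted p = 0.00580).

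The LPCAT3 difference was larger with slide in the fit. The NCE array that lay among the CYGB+ arrays read 11.07, the highest of the 15 arrays and 0.28 above the same replicate on the first slide. With slide as a covariate the difference was -0.89 (adjusted p = 0.00137) and within the shared slide -0.88 (adjusted p = 0.213; unadjusted p = 0.000622 in limma, in a fit in which 0 of 42403 probes passed and 4441 had an unadjusted p under 0.05); without that NCE array it was -0.61 (adjusted p = 0.00573). LPCAT3 passed with each of the 6 replicates left out in turn (adjusted p 0.0143 to 0.0381) and under 17 of the 22 alternatives. In place of quantile normalisation, it did not pass with the arrays scaled to their 75th percentile (-0.59, adjusted p = 0.132) or centred on their median (-0.60, adjusted p = 0.109). With the 75th percentile scaling every member probe had the same SE, 0.22, against 0.05 for LPCAT3 in the reported fit. A call in that scaling therefore depended on the size of the difference alone. All 22 LPCAT3 values lay between -0.89 and -0.56. Those that changed only the error model, the block or the probe filter repeated the -0.64 of the reported fit. Leaving out a replicate could not turn the sign here either.

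The promoter of LPCAT3 is shown because it belongs to the member with the smallest p-value; LPIN3, AGPAT5 and LPCAT2 had no entry in the RefSeq promoter table used, and 7 of the 10 genes did. The 250 bases before its start lie at chr12:7018477-7018726 on the minus strand (GRCh38.p14, RefSeq), where they read, 5′ to 3′ on the gene's strand, with the CCAAT boxes (CCAAT, or ATTGG on the other strand) and GC boxes (GGGCGG, or CCGCCC on the other strand) in capitals:

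LPCAT3 promoter: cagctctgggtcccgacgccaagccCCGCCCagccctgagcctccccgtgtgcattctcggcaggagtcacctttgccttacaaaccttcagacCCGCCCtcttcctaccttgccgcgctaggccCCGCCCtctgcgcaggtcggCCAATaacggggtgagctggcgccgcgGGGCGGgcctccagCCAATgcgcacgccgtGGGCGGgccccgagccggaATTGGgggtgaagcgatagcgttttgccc

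This window held 3 CCAAT boxes and 5 GC boxes, none overlapping another, and its GC content was 69.2%, against a median of 58.0% over 34943 promoter windows of the same length. A CCAAT box was found in 32.035% of all those windows and a GC box in 42.549%. The core of the sterol regulatory element (TCACNCCAC, both strands), which sterol-regulated lipid genes often carry, was found 0 times in it, in 0 of the 14 windows of the 7 genes and in 0.881% of all windows; the E-box CACGTG was likewise found 0 times in the LPCAT3 window, in 1 of the 14, and in 6.322% of all. These matches describe the letters of the windows only.

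The other LPCAT genes did not pass the test. LPCAT1, known for the saturated phosphatidylcholine of lung surfactant, read 7.35, 7.15 and 7.05 in NCE and 7.29, 7.61 and 7.32 in CYGB+. The groups overlapped through NCE replicate 1, whose array on the second slide read 7.60 against a mean of 7.22 for its arrays on the first slide. The difference was 0.22 (SE 0.12, adjusted p = 0.372), and with slide as a covariate its sign turned, to -0.19.

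LPCAT2, which makes platelet-activating factor in inflammatory cells, had 2 probes that were both well above background on all 15 arrays. A_24_P364807 read 7.18, 7.39 and 7.35 in NCE and 7.13, 6.96 and 7.11 in CYGB+. Its NCE replicates all lay above its CYGB+ replicates, by a small margin. The difference was -0.24 (SE 0.08, adjusted p = 0.173), or -0.33 without the arrays that stood apart (adjusted p = 0.0305), but 0.08 with slide as a covariate. The other probe (A_23_P141021) read 7.15, 7.54 and 7.39 in NCE and 7.01, 7.10 and 7.52 in CYGB+, groups that overlapped, and differed by -0.15 (SE 0.16, adjusted p = 0.683).

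Over the family, 7 of the 14 probes had an unadjusted p under 0.05, beside 19.5% of all probes, and the replicates of 6 probes did not overlap between the lines, beside 26.7% of all probes. On single arrays the lines were separate for 2 probes, those of LPIN3 and LPCAT3. The share of all probes separate on single arrays was not worked out, so this count is a description only. With slide as a covariate, 4 of the 14 probes changed sign (the dim LPIN1 probe, AGPAT2, LPCAT1 and 1 LPCAT2 probe), AGPAT1 and AGPAT5 fell close to 0, and LPCAT3 alone passed, beside 2.16% of all probes in that fit. Within the shared slide 0 of the 14 passed, and 3 had an unadjusted p under 0.05 in limma: the brighter LPIN1 probe (0.0230), LPIN3 (0.00458) and LPCAT3. The part of slide in the differences that shrank, and of the arrays that stood apart, was not tested.

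**Figure D2:**
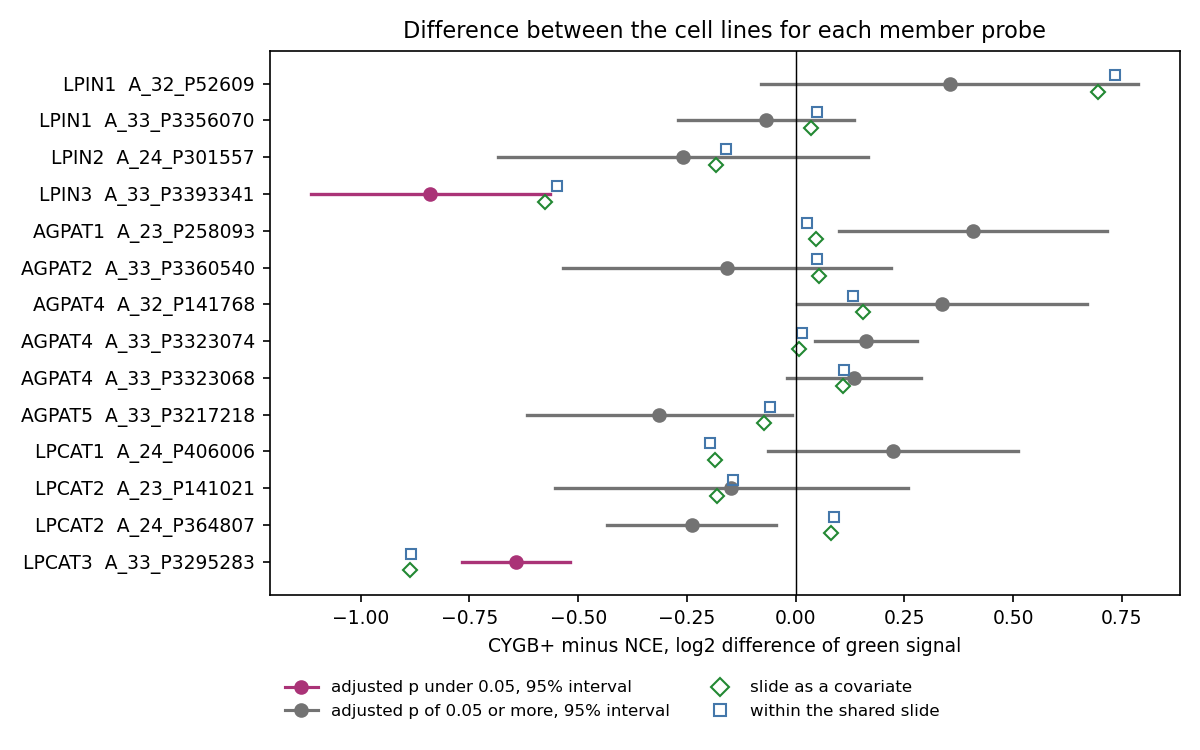
Difference between CYGB+ and NCE (log2 green signal, horizontal axis) for each of the 14 probes; dots are the reported fit with 95% intervals, coloured where the adjusted p is under 0.05, diamonds are the fit with slide as a covariate and squares the values within the shared slide. LPIN3 and LPCAT3 stay well below 0 in all 3 fits, whereas AGPAT1 goes from 0.41 to 0.05 with the covariate and LPIN1 from 0.35 to 0.70. Diamonds and squares rest on the same NCE array, so they are not separate checks. They take in the level of its replicate as well as the slide.

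**Figure D3:**
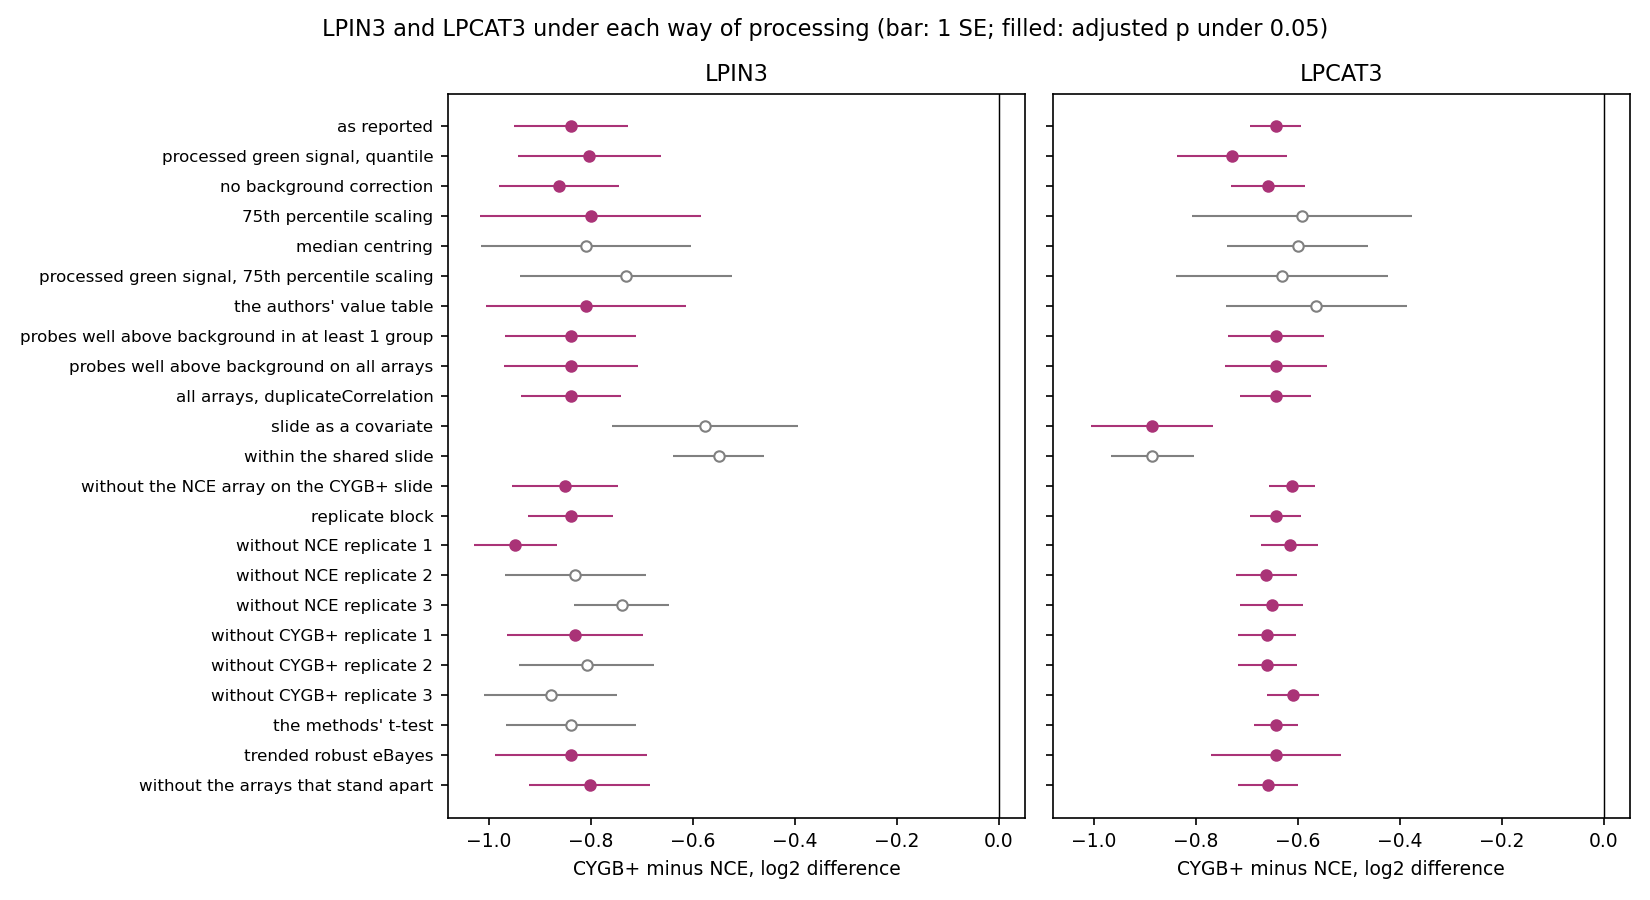
Log2 difference between CYGB+ and NCE for LPIN3 and LPCAT3 under the reported processing and the 22 alternatives; bars are 1 SE and filled points have an adjusted p under 0.05. Every point lies below 0, from -0.95 to -0.55 for LPIN3 and from -0.89 to -0.56 for LPCAT3. Alternatives that change only the error model, the block or the probe filter repeat the reported difference, so they do not test the direction.

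The rest of the pathway was read through 46 other genes of glycerophospholipid metabolism in 9 lists, with 64 probes. Of these, 5 probes passed, 1 higher and 4 lower in CYGB+ (7.81%, beside 4.85% of all probes), and the median difference was -0.04. The 5 were among 51 probes well above background on all arrays. Where only probes well above background in at least 1 group were fitted, 8 of 57 pathway probes passed, 1 higher and 7 lower. In that fit 2380 of 19791 probes passed. With slide as a covariate 3 passed, all lower, and with the replicate block 3 passed, 2 higher and 1 lower.

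The closest relatives of the members, 7 other lysophospholipid acyltransferase genes with 9 probes, had 1 probe higher and 1 lower. MBOAT1, which prefers lysophosphatidylserine and lysophosphatidylethanolamine and is of the same enzyme family as LPCAT3, read 8.58, 8.46 and 8.35 in NCE and 7.75, 7.98 and 8.00 in CYGB+, a difference of -0.55 (SE 0.09, adjusted p = 0.0346) that was -0.56 with slide as a covariate (adjusted p = 0.163) and did not pass with the replicate block (adjusted p = 0.0859). MBOAT2, its close homologue, went the other way, with 9.11, 8.95 and 8.91 in NCE and 9.57, 9.53 and 9.47 in CYGB+, a difference of 0.53 (SE 0.07, adjusted p = 0.0150). For MBOAT2 the covariate left 0.10 (adjusted p = 0.980). AGPAT3, the AGPAT of this list, named after its values were seen, was at -0.56 (adjusted p = 0.0781), and passed with slide as a covariate at -1.12 (adjusted p = 0.0169). Of the membrane-bound O-acyltransferases that passed, LPCAT3 and MBOAT1 were lower and MBOAT2 was higher in CYGB+.

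Downstream of phosphatidate, CDS2, a CDP-diacylglycerol synthase that competes with the lipins for their substrate, read 9.33, 9.59 and 9.67 in NCE and 8.78, 8.37 and 8.43 in CYGB+. The difference was -1.005 (SE 0.14, adjusted p = 0.0201), or -0.58 with slide as a covariate (adjusted p = 0.236), and it did not pass with the replicate block (adjusted p = 0.0617). The other 3 probes of that list, for CDS1 and CDIPT, did not pass. In the choline and ethanolamine list, 1 of 14 probes passed, that of the ethanolamine kinase ETNK2 at -0.40 (SE 0.07, adjusted p = 0.0410; -0.89 with slide as a covariate, adjusted p = 0.0240; not passed with the replicate block, adjusted p = 0.0877); a second ETNK2 probe differed by -0.22 (adjusted p = 0.192). Among the phospholipases, 1 of 7 passed, the lysosomal phospholipase PLA2G15 at -0.49 (SE 0.06, adjusted p = 0.0141; -0.45 with the covariate, which did not pass, adjusted p = 0.0698).

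None of the 6 glycerol-3-phosphate acyltransferase probes passed, nor did any of the 3 for other phosphatidate phosphatases, the 7 for enzymes that use diacylglycerol, the 3 of the phosphatidylserine branch or the 11 for lipin regulators and partners, a count of 0 in each list in limma, where 2, 1, 2, 1 and 2 probes in that order had an unadjusted p under 0.05. The last list includes SREBF1 and SREBF2, the transcription factors of lipid synthesis that LPIN1 is known to restrain, and CTDNEP1, the phosphatase that activates lipins, with its partner CNEP1R1. In it SREBF2 at 0.47 passed with the replicate block (adjusted p = 0.0434) and 1 of the 2 CNEP1R1 probes, A_33_P3403549, with slide as a covariate (-0.34, adjusted p = 0.0296). GPAT3, which carries out the first acylation ahead of the AGPATs and is named because its value of -1.27 was the lowest of the 64, after its values were seen, had an adjusted p of 0.0527.

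**Figure D4:**
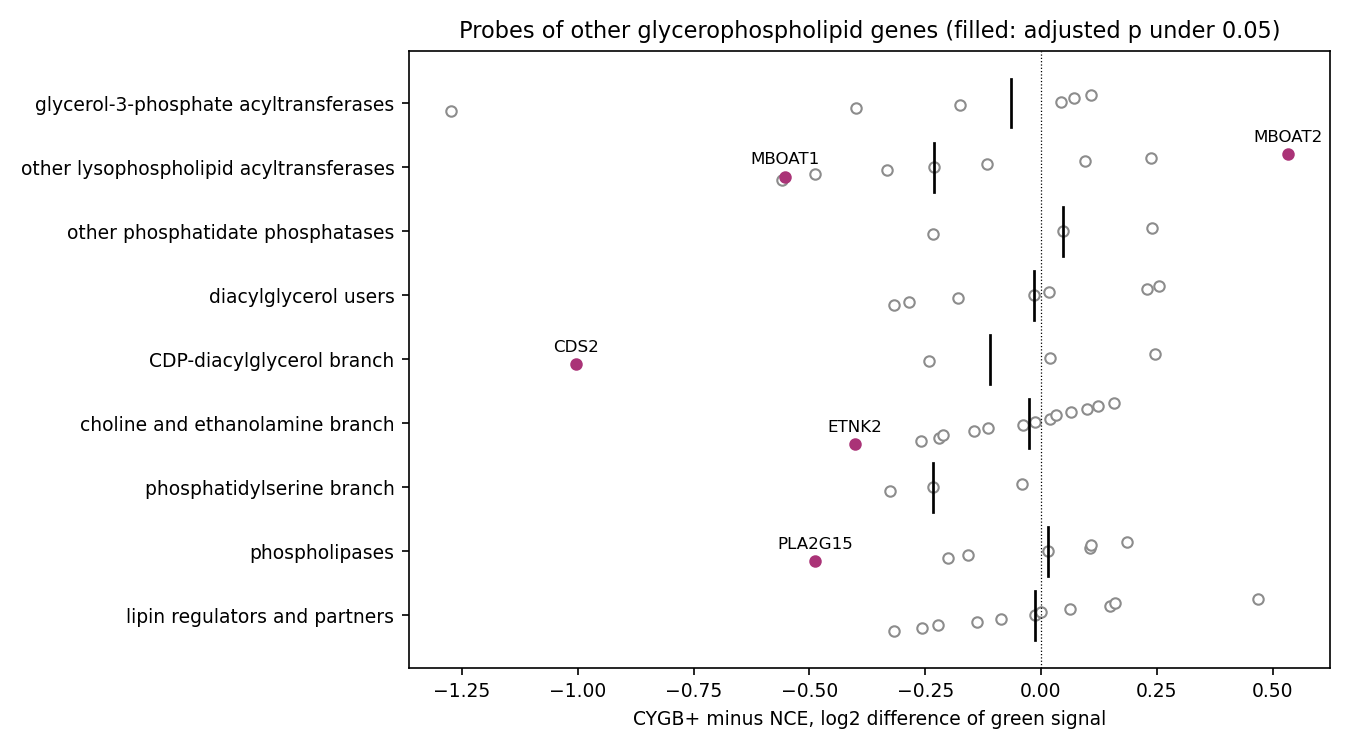
Log2 difference between CYGB+ and NCE for the 64 probes of other glycerophospholipid genes, by list; filled points have an adjusted p under 0.05 and are named, and vertical bars are list medians. MBOAT2 is the 1 filled point to the right of 0, and CDS2 at -1.005 the filled point farthest to the left.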

How the data were processed

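Agilent 2-colour scanner files of 15 arrays were used. The authors deposited the green and red signal intensities of each spot with their local background; the green (Cy3) median signal intensity was analysed, since per the labels every sample was labelled with Cy3. The study's methods give Cy5 for the control, and the red channel was not used. The deposited value table followed the green channel on every array (r 0.858 to 0.959). With the red channel its r was lower on every array but ran from 0.0475 up to 0.869. The values of that table are natural log signals that the authors had centred for each probe. They cover 15040 probes (10 of the 14 members) and served as an alternative. Their scale was inferred from a spread of 0.721 relative to log2 green.

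The files hold no mean signal, so median signals took the place of the planned means. They were background corrected with normexp (offset 50), control spots and outlier spots were left out, and log2 values were quantile normalised. Spots were averaged per probe and array repeats per biological replicate. limma 3.58.1 in R 4.3.3 (lmFit, eBayes) was fitted to all 42405 probes with Benjamini-Hochberg adjustment and a threshold of 0.05; it was tested on simulated data. The number of arrays limits the precision.

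Members and gene lists were chosen with earlier results of these data known. Genes named were all members, CYGB, per list the at most 2 called genes with the largest difference, and the 3 probes most like the member with the largest difference. Each pair of replicates with the same number deviated together (r 0.216, 0.235 and 0.322), so a replicate block was fitted too; pairs with different numbers ran from -0.524 to 0.321, so the pairing rests on weak evidence from the data. Alternatives covered background correction, scaling, filters, slide, array repeats, left-out replicates, the methods' t-test on the same values and, added after the data were seen, leaving out 3 arrays that stood apart. Promoters were searched in RefSeq windows.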

Additional observations from a re-analysis of the deposited data

Results flagged for a closer look

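In 4 of the 28 sets of arrays (14 probes in 2 cell lines), 1 array lay apart from the others of its set by more than Dixon's 95% limit. For independent values chance gives about 1 set in 20. Array repeats of a replicate, and sets read on the same arrays, are not independent, so the 4 sets cannot be judged against that rate. LPIN2 (A_24_P301557) read 6.69 and AGPAT2 read 11.54 on the first array of CYGB+ replicate 1, where the next lowest CYGB+ arrays read 7.41 and 12.21. That array is 1 of the 3 that stood apart from their group over all probes. AGPAT4 (A_32_P141768) read 6.22 on the second array of NCE replicate 2, where the next lowest NCE array read 6.76. The dim LPIN1 probe (A_33_P3356070) read 6.38 on the first array of NCE replicate 2, where the next highest NCE array read 6.13.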

How the results depend on the processing

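The 2055 probes called over the whole array became 1232 with the processed green signal, 1369 with scaling to the 75th percentile, 484 with median centring, 738 with the processed signal and that scaling (which moved the median of all probes by -0.14), 914 with slide as a covariate, 0 within the shared slide, 136 in the methods' t-test, 5582 with arrays as replicates in duplicateCorrelation and 4654 without the 3 arrays that stood apart; with 1 replicate left out they ran from 410 to 2047. The 2 member probes called became 1 with scaling to the 75th percentile, in the value table, with slide as a covariate and in the methods' t-test, 0 with median centring, with the processed signal scaled to the 75th percentile and within the shared slide, and 5 without the arrays that stood apart, with 1 to 2 when a replicate was left out. The 5 pathway probes called became 8 among probes above background in at least 1 group, 3 with slide as a covariate, 3 with the replicate block, 2 with the 75th percentile and 8 without those arrays, with 0 to 5 when a replicate was left out. The replicate block gave 1792 calls over the array and 3 among the members: AGPAT4 (A_32_P141768) joined LPIN3 (adjusted p = 0.0335) and LPCAT3 (adjusted p = 0.0286). AGPAT1 also passed with duplicateCorrelation (adjusted p = 0.00858) and the AGPAT4 probe A_33_P3323074 with the processed signal (adjusted p = 0.0452). LPIN3 was lost with median centring (adjusted p = 0.141), with the processed signal scaled to the 75th percentile (0.133) and in the methods' t-test (0.0971), and LPCAT3 with the latter scaling (0.185) and in the value table (0.0695). The cause of these changes was not tested. With scaling to the 75th percentile, every member probe and the 5 called pathway probes had the same SE, 0.22. Calls among them in that fit depended on the size of the difference alone. Each group is 1 cell line, slide rests on 1 NCE array, and signal over background limits 3 of the 14 probes.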

Other observations

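LPIN3, the member with the largest difference, was compared with 14176 other named probes well above background on all arrays, over the 6 biological replicates. The 3 most alike were RCN1, an endoplasmic reticulum calcium-binding protein (r = 0.998; difference -0.40), CYBRD1, a ferric reductase (r = 0.998; difference -0.60), and LOC158435 (r = 0.997; difference -0.57). These are descriptions over 6 values that fall in 2 groups, chosen as the highest of many.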
